A study of Caenorhabditis elegans with 2 samples.

Results

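The dod genes of Caenorhabditis elegans are named as genes downstream of DAF-16. They were chosen by gene name: every protein-coding gene whose symbol starts with dod- in the Ensembl annotation of the WBcel235 assembly, which gave 10 of 19985 protein-coding genes. The family was picked with its peaks in these data already known from earlier results, so the counts and signals below describe its members and carry no test. The data are lists of peaks of the GATA factor ELT-2, found by sequencing DNA from chromatin immunoprecipitation (ChIP-seq), from 1 group with 2 biological replicates. That group is strain OP56, genotype unc-119(ed3) III; wgIs56, a stable line whose integrated transgene makes ELT-2 with a C-terminal GFP-FLAG tag. Whole hermaphrodite late embryos were taken 4 hours after egg-bleach synchronization, the chromatin was sonicated, and the tagged protein was precipitated with an anti-GFP antibody, although the antibody field of the labels reads elt-2. Control libraries were not analysed here, and the lists hold no expression values, so stage and tissue could not be checked against markers. All embryos are from this 1 transgenic line, and no group is compared with another.

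DAF-16 is the FOXO transcription factor at the end of the worm insulin/IGF-1 pathway. When signalling through the receptor DAF-2 is low, DAF-16 enters the nucleus and the expression of many stress, metabolic and immune genes changes. dod-3 is known as a gene that is raised when DAF-16 is active, and dod-17, dod-22 and dod-24 as genes that are lowered. DAF-16 itself binds TGTTTAC, known as the DAF-16 binding element. A different word, CTTATCA, is common near genes that change with DAF-16, is called the DAF-16 associated element, and is known to be bound by the zinc finger protein PQM-1. Read on the other strand it is TGATAAG, which holds the core word TGATAA bound by ELT-2, the main GATA factor of the intestine after the endoderm is formed. dod-22 and dod-24 are known as intestinal genes that respond to infection.

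The sequence at the peaks shows where these words lie. A summit is the position within a peak that the authors' file gives as its highest point. The stretches are 101 bases long and are centred on each thresholded summit in the window of a dod gene other than dod-18, with the gene's own strand shown 5′ to 3′. For dod-20 and dod-24, which had no thresholded summit, the stretch surrounds the TGATAAG nearest to the 5′ end. The last line gives the 160 bases just before the 5′ end of dod-3. Capitals mark TGATAA or its reverse complement TTATCA, and in the last line also TGTTTAC. All are from the RefSeq genome of WBcel235, which is the assembly called ce11.
dod-3 summit, chrV:2731160-2731260, minus strand: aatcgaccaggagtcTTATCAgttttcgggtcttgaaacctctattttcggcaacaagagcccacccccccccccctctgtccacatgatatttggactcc
dod-6 summit, chrIII:10197058-10197158, plus strand: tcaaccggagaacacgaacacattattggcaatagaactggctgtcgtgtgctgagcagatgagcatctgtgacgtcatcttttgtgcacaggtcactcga
dod-19 summit, chrV:415219-415319, minus strand: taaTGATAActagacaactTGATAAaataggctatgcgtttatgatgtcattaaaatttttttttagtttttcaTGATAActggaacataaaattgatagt
dod-21 summit, chrIV:12936501-12936601, plus strand: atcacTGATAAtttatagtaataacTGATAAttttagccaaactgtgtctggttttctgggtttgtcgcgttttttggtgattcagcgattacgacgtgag
dod-23 summit, chrII:8400058-8400158, minus strand: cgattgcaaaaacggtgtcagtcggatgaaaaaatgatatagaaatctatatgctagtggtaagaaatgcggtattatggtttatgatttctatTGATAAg
dod-17 nearer summit, chrIV:12973488-12973588, plus strand: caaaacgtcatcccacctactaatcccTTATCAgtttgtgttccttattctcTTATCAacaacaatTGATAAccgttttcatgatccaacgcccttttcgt
dod-17 farther summit, chrIV:12972119-12972219, plus strand: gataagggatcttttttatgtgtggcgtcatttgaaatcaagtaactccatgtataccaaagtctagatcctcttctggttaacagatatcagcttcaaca
dod-22 summit, chrIV:12962735-12962835, plus strand: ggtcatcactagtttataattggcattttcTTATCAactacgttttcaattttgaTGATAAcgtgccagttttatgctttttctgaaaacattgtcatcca
dod-20 promoter, no summit, chrV:422296-422396, plus strand: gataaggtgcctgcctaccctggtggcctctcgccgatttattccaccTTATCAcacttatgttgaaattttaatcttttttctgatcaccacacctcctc
dod-24 promoter, no summit, chrIV:12942201-12942301, minus strand: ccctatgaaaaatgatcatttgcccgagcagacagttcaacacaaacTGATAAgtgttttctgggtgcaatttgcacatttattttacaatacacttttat
dod-3 last bases before the 5′ end, chrV:2731099-2731258, minus strand: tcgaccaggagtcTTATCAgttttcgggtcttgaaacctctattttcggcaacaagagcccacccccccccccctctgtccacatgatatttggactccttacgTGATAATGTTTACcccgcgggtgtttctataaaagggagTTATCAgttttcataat

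Of these 8 summit stretches, 6 held the core word and it was missing from those of dod-6 and of the farther dod-17 summit. At dod-6 the centre of the nearest core word lay 50.5 bp from the summit, just past the 50 bp limit of the search. At the farther dod-17 summit the centre lay 48.5 bp away, and the edge of the window cut the word there too. The nearer dod-17 summit had 3 core words, the closest with its centre 4.5 bp from the summit. The dod-19 stretch also held 3, and those of dod-21 and dod-22 held 2 each. At dod-22 the closest was 7.5 bp from the summit.

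A gene window was taken from 5 kb upstream of the 5′ end to the 3′ end, and a promoter window spanned the 1000 bp before the 5′ end and the 200 bp after it. The lists were the thresholded list of 4098 peaks, the list of 30000 entries called on the pooled replicates, and the lists of 25770 and 25986 entries of replicates 1 and 2. The pool holds both replicates, so finding a pooled peak again in a replicate is no independent evidence for it. The last 3 lists hold peaks together with background, as deposited for an irreproducible discovery rate (IDR) procedure. The signal is the authors' own value for each peak. It has no stated scale and is used to describe and rank peaks within a list, where rank 1 is the strongest. In the thresholded list it ran from 67.6 to 1740 with a median of 108. The number of reads behind these lists is unknown.

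Thresholded summits fell in the gene windows of 8 of the 10 dod genes, against 28.4% of all protein-coding genes, and the exceptions were dod-20 and dod-24. The windows were not longer than usual, with a median of 6287.5 bp for the dod genes and 7026 bp for all protein-coding genes. In the promoter window, where a summit is close to the start of the gene, 5 dod genes had one, against 12.5% of all. These were dod-3, dod-6, dod-19, dod-21 and dod-23. A far larger share of all genes has some entry in the longer lists, and there the count says less. An entry of the pooled list lay in the gene windows of 9 dod genes, against 67.4% of all genes, and in the promoter windows of 7, against 39.1%. The lists of replicates 1 and 2 each held entries for 9 dod genes, against 70.9% and 71.8% of all genes. When each replicate's list was held to its strongest 4098 entries, 7 dod genes had a summit in replicate 1, against 28.6% of all genes, and 7 in replicate 2, against 28.4%. dod-22 was absent from the first of these counts and dod-19 from the second.

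**Figure D1:**
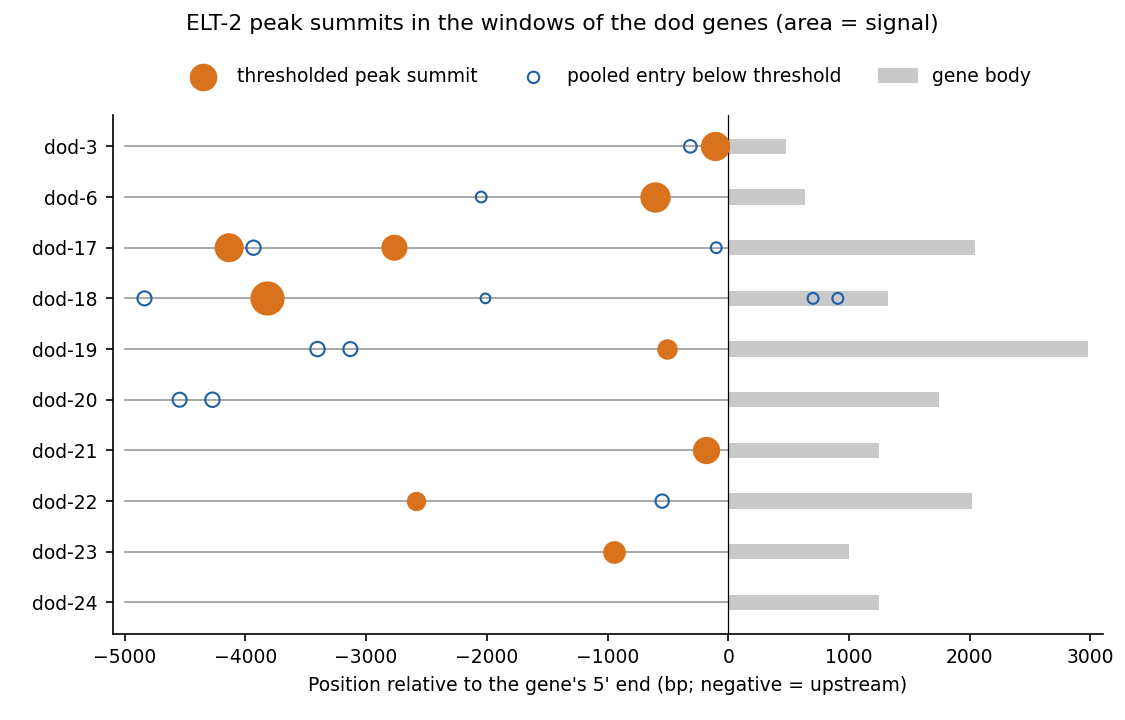
Peak summits in the gene windows of the 10 dod genes, by position relative to each gene's 5′ end in bp. Filled circles are the 9 thresholded summits, open circles are pooled entries below the threshold, grey bars are gene bodies, and the area of a circle is proportional to the deposited signal; dod-24 has no entry.

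All 9 thresholded summits were intergenic, and each lay upstream of the dod gene in whose window it fell. Their median signal was 146, with 68.9 the lowest and 238 the highest, and 6 of the 9 were above the median of the thresholded list. The highest rank among them was 413, that of the dod-18 peak. For 5 of the genes the summit's nearest 5′ end was the gene's own, and these are the genes with a summit in the promoter window. The summits of dod-17, dod-18 and dod-22 lay nearer to the 5′ end of another gene.

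**Figure D2:**
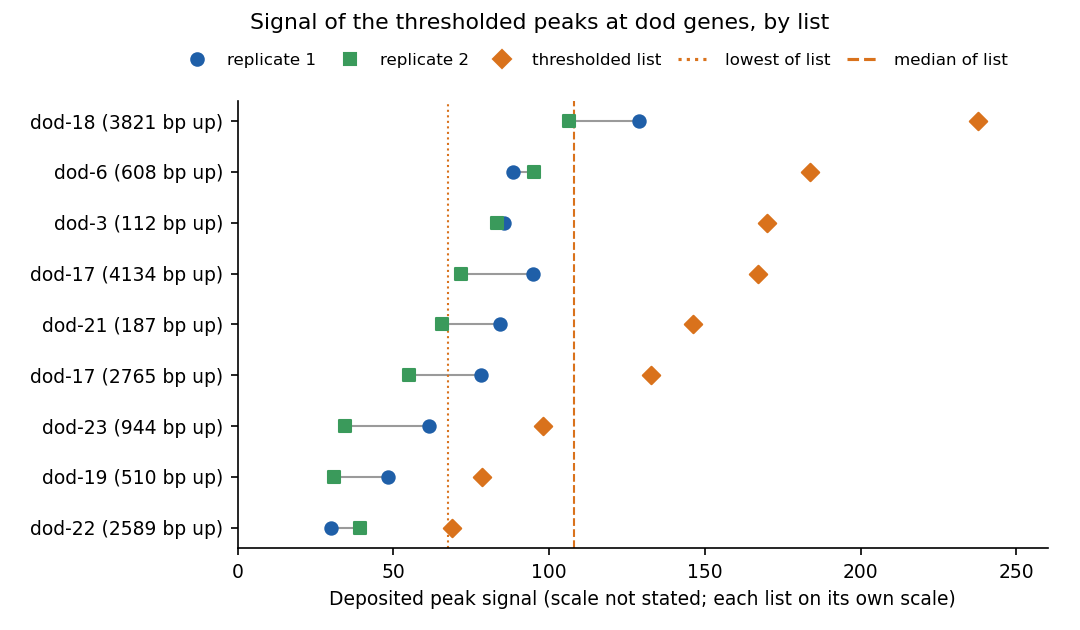
Deposited signal of the 9 thresholded peaks in each list, with 1 row per peak, named by its dod gene and its distance upstream. Circles are replicate 1, squares replicate 2, diamonds the thresholded list; the dotted line is its lowest signal of 67.6 and the dashed line its median of 108, and scales differ between lists.

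dod-3, which RefSeq describes as regulated by DAF-16 and with no further function, is a short gene of 477 bp at chrV:2730622-2731098 on the minus strand. Its summit, at position 2731210, was 112 bp upstream of the 5′ end, closer than at any other dod gene. The peak had a signal of 170 and rank 894 in the thresholded list. In replicate 1 its signal was 85.4 with rank 1031, and in replicate 2 it was 83.2 with rank 853.

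In the dod-3 promoter the words lay close to the start of the gene. It held TGATAA 147, 56 and 17 bp upstream of the 5′ end. The word farthest upstream is part of a DAF-16 associated element. A DAF-16 binding element starts 50 bp upstream and directly adjoins the core word at 56 bp, as the last of the printed lines shows. Among the dod promoters only dod-22 had another DAF-16 binding element, 396 bp upstream.

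dod-6 encodes a protein with a ShKT domain, a small cysteine-rich fold first described in a sea anemone toxin, and lies at chrIII:10197716-10198352 on the plus strand. Its summit, at position 10197108, was 608 bp upstream of the 5′ end and had a signal of 184 with rank 749. The signal was 88.5 in replicate 1 with rank 962 and 95.0 in replicate 2 with rank 629. By rank, in lists of similar length, the peaks of dod-3, dod-6 and dod-22 stood higher in replicate 2, and the other 6 stood higher in replicate 1. The peak was 155 bp wide, narrower than the 456 bp of most others.

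dod-23, for which RefSeq gives no function, lies at chrII:8398161-8399164 on the minus strand. Its summit at position 8400108 was 944 bp upstream of the 5′ end, near the outer edge of the promoter window. The signal was 97.9 with rank 2398, below the median of the thresholded list. The signal in replicate 1 was 61.6 with rank 1925, against 34.6 with rank 3953 in replicate 2. It was the only entry in the dod-23 window in each of the 4 lists.

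dod-19 and dod-20 lie near each other on chromosome V, in a stretch of 12396 bp that also holds irg-8, an infection response gene, and Y39D8A.1, which RefSeq describes as UNC93-like. dod-19 is at chrV:411782-414759 on the minus strand, and RefSeq names a GH131_N and an IgGFc-binding domain among its products. Its summit at position 415269 was 510 bp upstream of the 5′ end, with a signal of 78.3 and rank 3339. The signal was 48.1 with rank 2911 in replicate 1 and 31.0 with rank 4614 in replicate 2. The entry in replicate 2 thus fell outside that list's strongest 4098. It was the only thresholded summit in the stretch.

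dod-20, at chrV:422433-424177 on the plus strand, had no thresholded summit in its window, and the nearest was that of dod-19, 7164 bp upstream. Below the threshold, pooled entries lay 4544 and 4272 bp upstream with signals of 45.1 and 48.0. The same entries fall in the dod-19 window, 3130 and 3402 bp upstream of that gene, and the nearest 5′ end to both is that of irg-8. In the dod-20 promoter window, replicate 2 listed an entry 37 bp upstream with a signal of 19.0 and rank 9658. Another lay 618 bp upstream, with a signal of 10.9 and rank 24265. Neither had a counterpart in the pooled list or in replicate 1. Replicate 2 also listed an entry 3953 bp upstream with a signal of 21.7, whose nearest 5′ end is that of Y39D8A.1. The dod-20 promoter was rich in the words, with 7 core words, of which 3 were DAF-16 associated elements.

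Of the dod genes, 4 encode proteins with a CUB-like domain, a family in worms that is known for genes induced by pathogens: dod-17, dod-21, dod-22 and dod-24. All 4 lie on chromosome IV in a stretch of 46981 bp from cld-1 to K10D11.2, in which 12 of 15 protein-coding genes are CUB-like. The stretch held 5 thresholded summits and 9 pooled ones. The thresholded summits lay at its left end and in its right part. Between positions 12936551 and 12962785 there was a gap of 26234 bp with no pooled entry. dod-24 lies inside that gap.

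**Figure D3:**
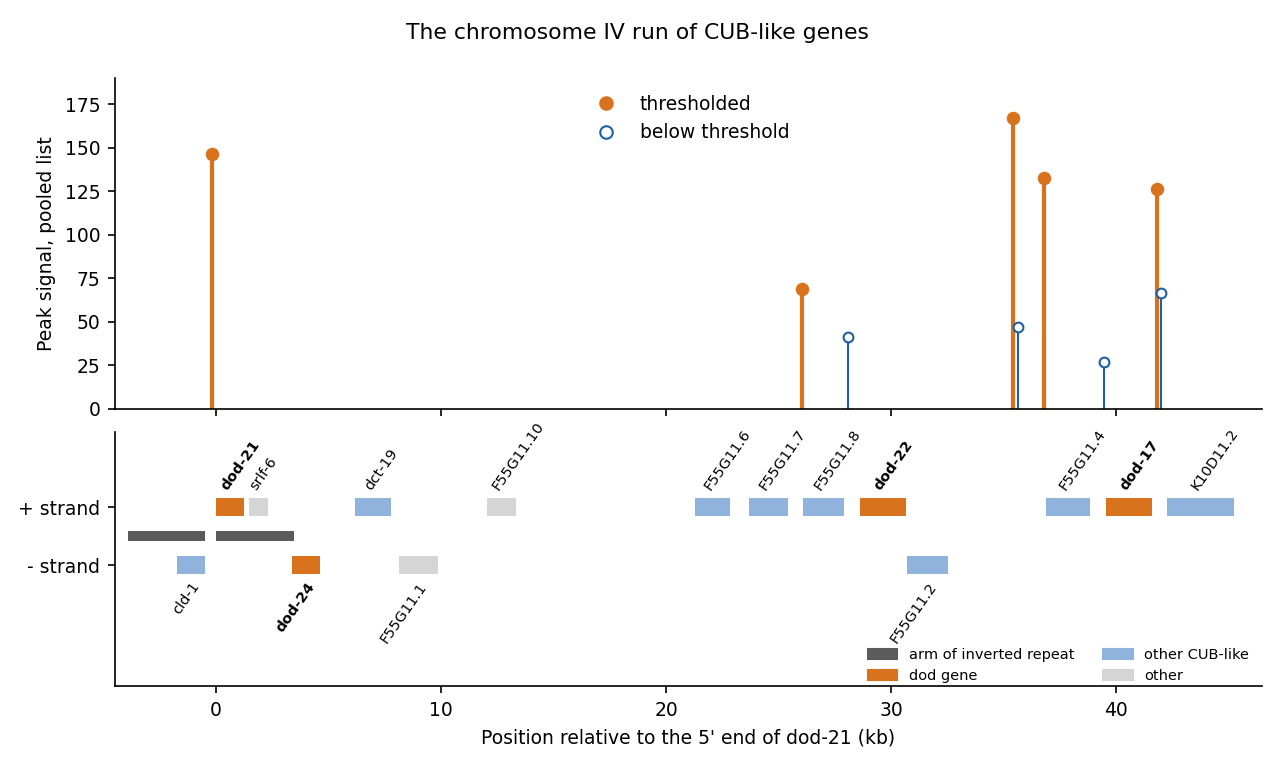
The chromosome IV stretch from cld-1 to K10D11.2, with position relative to the 5′ end of dod-21 in kb. The upper panel gives the deposited signal of the 9 pooled summits, filled where thresholded; the lower panel gives the genes by strand and the arms of an inverted repeat. No summit lies over dod-24 or elsewhere in the gap of 26234 bp that holds it.

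dod-21, at chrIV:12936738-12937988 on the plus strand, had a summit 187 bp upstream of its 5′ end with a signal of 146 and rank 1190. The signal was 84.3 with rank 1064 in replicate 1 and 65.5 with rank 1364 in replicate 2. The peak lies between dod-21 and cld-1, another CUB-like gene, which is transcribed the other way and whose 5′ end is 467 bp from that of dod-21. The summit is 280 bp from the cld-1 end, so it counts for both promoters. The dod-21 promoter window had the most core words of the family, 8.

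dod-21 and cld-1 are near-identical copies, and this limits what can be read from their bodies. Of the 36-base words of the dod-21 gene, 95.9% also occur in cld-1. The copies sit in an inverted repeat with arms of 3435 bp, at chrIV:12932813-12936247 and chrIV:12936752-12940186, with 504 bp between them. The summit is in the stretch between the arms, 304 bp from the left arm and 201 bp from the right one. In the dod-21 gene window 14.4% of 36-base words occur once in the genome, against 96.7% to 100% in the windows of the other dod genes. In the 101 bases at each of the 9 summits all of them occur once. The right arm also reaches the 3′ end of dod-24. Read length and the handling of reads with several matches are unknown here, so whether a peak in the arms could have been called was not tested.

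dod-24, at chrIV:12940106-12941354 on the minus strand, was the only dod gene with no entry in any of the 4 lists. The nearest summit in the thresholded and pooled lists was that of dod-21, 4803 bp from its 5′ end and downstream of it. In the dod-24 promoter window all 36-base words occur once. It held 2 core words, 900 and 61 bp upstream, and the one at 900 bp is a DAF-16 associated element, printed above.

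dod-22, at chrIV:12965374-12967392 on the plus strand, had the weakest thresholded summit of the family, 2589 bp upstream. Its signal was 68.9 with rank 3992, just inside a list whose lowest signal was 67.6. It was 30.1 with rank 5782 in replicate 1, outside that list's strongest 4098, and 39.2 with rank 3302 in replicate 2. The summit is 23 bp upstream of F55G11.8, another CUB-like gene, and is nearer to it than to dod-22. Closer to dod-22 the lists differed. The pooled list had an entry 547 bp upstream with a signal of 41.2 and replicate 1 an entry 581 bp upstream with 28.6, whereas replicate 2 had one 40 bp upstream with 24.4.

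dod-17, at chrIV:12976303-12978343 on the plus strand, was the only member with several thresholded summits. The farther one, 4134 bp upstream, had a signal of 167 and rank 926, with 94.8 in replicate 1 and 71.7 in replicate 2. In replicate 1 the summit was shifted by 77 bp. The pooled list and replicate 2 also held a second entry beside it, 3932 and 3934 bp upstream, with signals of 47.0 and 35.1. Replicate 1 listed no second entry there. The nearer one, 2765 bp upstream, had a signal of 133 and rank 1445, with 78.0 in replicate 1 and 55.1 in replicate 2. Both thresholded summits lie nearer to the CUB-like gene F55G11.4, whose 5′ end is 86 bp from the nearer summit. At the dod-17 promoter itself the pooled list had a weak entry, 99 bp upstream, with a signal of 26.9 and rank 14637. Replicate 1 had an entry 104 bp upstream with a signal of 13.0 and rank 22902, and replicate 2 had none there. Past its 3′ end the next summit, with a signal of 126 and rank 1570, lies in the promoter window of K10D11.2, and a pooled entry beside it had a signal of 66.5, just below the threshold.

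dod-18, which RefSeq describes as a nucleotide pyrophosphatase, had the strongest peak in the family, although the nearest 5′ end to that peak belongs to another gene, cyc-1. Its gene lies at 8019578 to 8020901 on the minus strand of chromosome I. The summit, 3821 bp upstream, had a signal of 238 and rank 413. In replicate 1 the signal was 129 with rank 408, and in replicate 2 it was 106 with rank 476. The summit is 300 bp upstream of cyc-1, which encodes cytochrome c1 of the mitochondrial respiratory chain, and the nearest core word centre was 182.5 bp away. Other pooled entries in the dod-18 window, including those 703 and 908 bp downstream of its 5′ end, had signals of 45.5 or less. It had 1 core word in its promoter window, the fewest of the family.

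The words were then counted on both strands over all thresholded summits and all promoters, and every TGATAAG is also a TGATAA. Within 50 bp of the summit, 6 of the 9 dod summits had TGATAA, against 43.5% of all 4098. In windows of the same width moved by 500 bp, 2 of the 9 had it, against 9.57% of all. TGATAAG was at 4 of the 9 summits, against 26.1% of all. TGTTTAC was at none of the 9 and at 1.76% of all, and the control word AATAGT, which is TGATAA reversed, was at none of the 9 and at 7.05% of all.

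In promoter windows TGATAA is common, and all 10 dod genes had it, against 72% of all protein-coding genes. The longer word is rarer. TGATAAG was in 9 of the 10, against 23.7% of all genes, and the exception was dod-17. Counts of TGATAA ran from 1 to 8 in the dod promoters, against a median of 1 over all genes. TGTTTAC was in 2 of the 10, against 15.1% of all genes, a share near the background. AATAGT was in 4 of the 10, against 62.1% of all genes. Base composition was alike, with a GC content of 31.1% to 38.6% and a median of 34.8% in dod promoters, against a median of 34.9% over all genes. The associated element was itself described from promoters of genes that change with DAF-16, dod genes among them, so its frequency here is no independent result. A word in a window is a match of letters only.

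**Figure D4:**
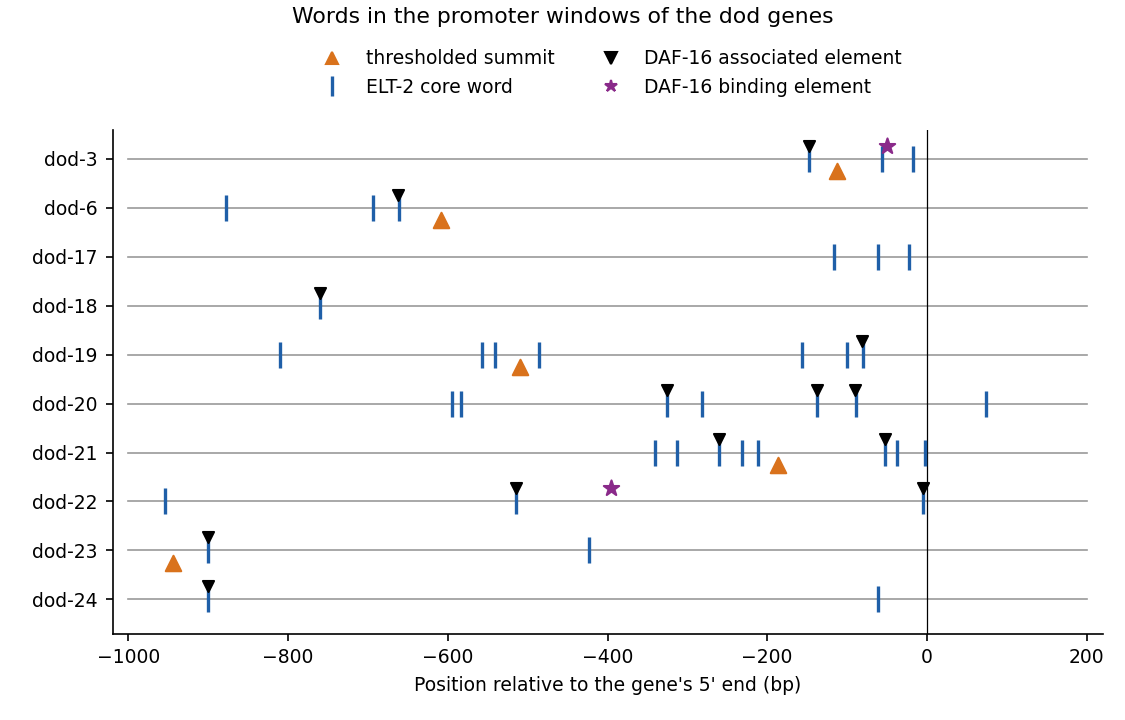
Matches of the ELT-2 core word, the DAF-16 associated element and the DAF-16 binding element in the promoter windows of the 10 dod genes, by position relative to the 5′ end in bp, with thresholded summits as triangles below each line. Every promoter has a core word, and 9 have the associated element.

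**Figure D5:**
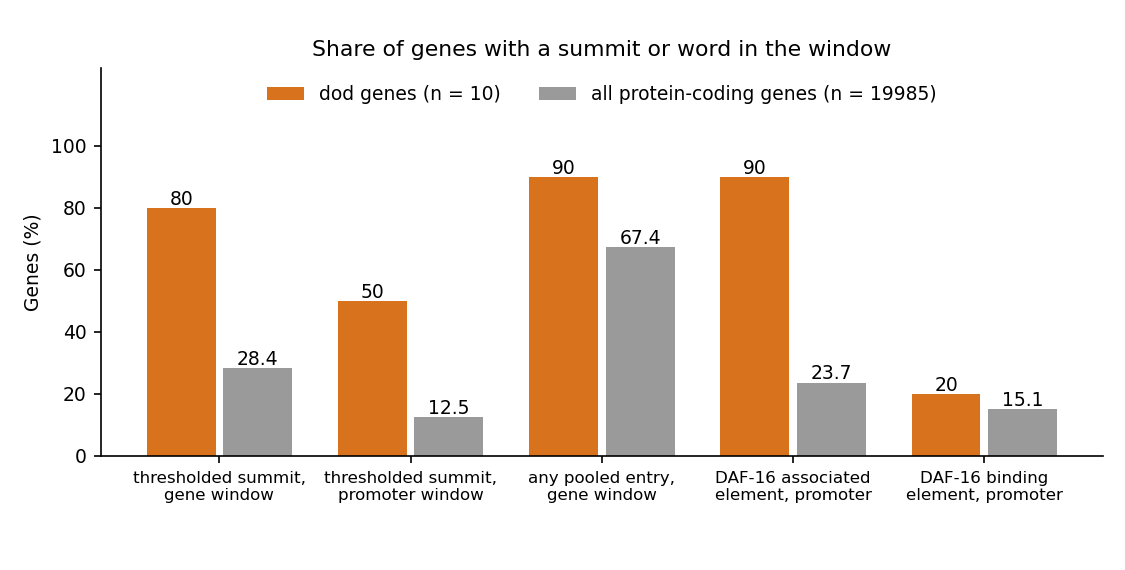
Percentage of the 10 dod genes (left bar of each pair) and of all 19985 protein-coding genes (right bar) that have a thresholded summit, a pooled entry or a word in the named window. The pairs stand at 80% and 28.4% for a thresholded summit in the gene window, and at 20% and 15.1% for the binding element.

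A summit and the words were not always found at the same gene. dod-20 and dod-24 had TGATAAG in the promoter but no thresholded summit in the gene window. dod-18 and dod-22 also had it in the promoter, but their thresholded summits lay 3821 and 2589 bp upstream, outside the promoter window. At dod-19, with both in the promoter window, the centre of the nearest TGATAAG lay 432 bp from the summit. dod-17 had no TGATAAG in its promoter, and its thresholded summits lay 2765 and 4134 bp upstream, where the nearer held 2 of them. With 10 genes this is a description of the members.

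The rest of the pathway was read from lists of its known genes. These lists were put together for this report with earlier results of these data known, so their counts are descriptions and carry no test. Of 20 genes that act in insulin signalling to DAF-16 or beside it, 13 had a thresholded summit in the gene window, or 65%, against 28.4% of all genes. Their windows are long, with a median of 11962 bp against 7026 bp for all protein-coding genes, and in the promoter window the count was 4, or 20%, against 12.5%. The strongest were at ftt-2, which encodes a phosphoserine-binding protein that holds DAF-16 in the cytoplasm, with a signal of 421 and rank 66 at 507 bp upstream, and at pdk-1, a kinase of the pathway, with 216 at 1382 bp upstream. hlh-30, the worm TFEB, had 192 at 2416 bp downstream of its 5′ end. daf-16 had 1 thresholded summit, 2701 bp downstream of its 5′ end, with a signal of 122 and rank 1662. pqm-1 had 3, the strongest with a signal of 178, 1432 bp downstream of its 5′ end.

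Of 24 genes described as DAF-16 targets, 10 had a thresholded summit in the gene window, or 41.7% against 28.4% of all genes, and 7 in the promoter window, or 29.2% against 12.5%. Their windows had a median of 6674 bp. The strongest was at lys-8, a lysozyme gene, with a signal of 404 and rank 71 at 208 bp upstream. gpd-2, a glycolytic enzyme gene with a near-identical neighbouring copy, had 218 at 2686 bp upstream, and icl-1, of the glyoxylate cycle, had 179 at 3483 bp upstream. The superoxide dismutase gene sod-3, the classic DAF-16 target, had no entry of the pooled list in its gene window. The metallothionein gene mtl-1 had no thresholded summit, and its pooled entries reached a signal of 18.1. The strongest peak in a dod window, at 238, is that of dod-18, and its nearest 5′ end is that of cyc-1. This peak was weaker than those of ftt-2 and lys-8 and stronger than those of the other genes of both lists. Among peaks whose nearest 5′ end is a dod gene's own, the strongest was that of dod-6, at 184. It was also weaker than those of gpd-2, pdk-1 and hlh-30.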

How the data were processed

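The measured material was tagged ELT-2 chromatin from 2 samples of 1 group, biological replicates 1 and 2 per the labels. The peak lists were called by the authors, and those of build ce11 were used. The deposited signal of each peak is on no stated scale. The deposited −log10 q-value of each peak was read for completeness and not used for a result. The deposited summit offset gave the summit positions, written here 1-based. Aligner, peak caller, versions, IDR threshold: not given in the sources used here. The depth per sample is unknown, so no interval is given.

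The members, the pathway lists and the words were chosen with earlier results of these data known, and the DAF-16 lists' alternatives and the counts of CUB-like genes were added after seeing the data. Genes named are all dod genes, genes whose 5′ end is nearer to a member's thresholded summit, the other genes of a run that holds members, the 3 genes of each pathway list with the strongest thresholded summit in the gene window, and daf-16, pqm-1, sod-3 and mtl-1. Summits were assigned to windows of Ensembl release 115 genes with Python 3.11.15, numpy 2.4.6 and pandas 2.3.3, and plotted with matplotlib 3.10.9. Peaks of different lists were matched by an overlap of at least 1 bp. Words were searched in the RefSeq WBcel235 genome. The assignment was tested on simulated data with known positions. Lists in ce10 were not used. Alternatives were other windows, the upper part of the list by signal (the strongest 50%), nearest 5′ end, any base of a peak, transcript 5′ ends, word distances, and each replicate left out.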

Additional observations from a re-analysis of the deposited data

How the results depend on the processing

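Counts of dod genes, of 10, are given with the share of all protein-coding genes under the same setting. The count with a thresholded summit in the gene window, 8 (28.4% of all genes), was 5 among the strongest 50% of peaks (16.3%), 5 with a window from 2 kb upstream (20%), 5 where a summit counted only for its nearest 5′ end (14.9%) and 9 with a window from 10 kb upstream (39.9%). The promoter window count, 5 (12.5%), was 3 among the strongest 50% of peaks (6.39%) and 2 in a window of 500 bp before and 100 bp after the 5′ end (9.72%). The 9 summits became 5 with a window from 2 kb upstream and stayed 9 with one from 10 kb upstream. The gene added at 10 kb was dod-20, through the dod-19 summit, 7164 bp upstream of dod-20. At the strongest summit of each gene TGATAA lay within 50 bp for 5 of 8 genes (43.5% of all 4098 summits), within 25 bp for 2 (27.9%) and within 100 bp for 7 (54.1%). TGATAAG lay within 50 bp for 3 (26.1%) and AATAGT for 0 (7.05%). Of the insulin pathway genes 4 had a promoter summit (12.5% of all genes), and 9 in a window of 2000 bp before and 500 bp after the 5′ end (16.7%). Among the strongest 50% of peaks the gene window count of the DAF-16 targets, 10, was 6 (16.3%) and their promoter count, 7, was 3 (6.39%). With either replicate left out, so that the other's strongest 4098 entries were used, the dod counts were 7 to 7 in the gene window (28.4% to 28.6%), 4 to 5 in the promoter window (12.4% to 12.5%) and 8 to 9 summits. The insulin counts were then 12 to 12 and 3 to 4, and the target counts 8 to 10 and 5 to 8. No paired analysis was possible because there is 1 group. Depth is unknown, so a gene with no entry, such as dod-24, has no detected peak in these lists and is not shown to lack one.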

Other observations

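CUB-like genes outside the family were counted once the peaks were known. CUB-like is here the wording of the RefSeq product. A gene with another wording, such as irg-8 with a CUB_2 domain, may therefore not be counted. Of the 12 in the chromosome IV stretch, dod genes included, 8 had a thresholded summit in the gene window and 5 in the promoter window, or 41.7%. Of the 37 CUB-like genes elsewhere, 10 had one in the gene window, or 27%, and 8 in the promoter window, or 21.6%, against 28.4% and 12.5% of all protein-coding genes. Neighbouring windows in the stretch share summits, so these genes are not independent of each other. The 4 CUB-like dod genes had 1 promoter summit among them, that of dod-21, which is shared with cld-1.

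The gap around dod-24 was not the same in both replicates. In replicate 1 it ran over 26230 bp without an entry, and in replicate 2 over 15378 bp, up to an entry at position 12951947 on chromosome IV that has no counterpart in the pooled list.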
